A study of Homo sapiens with 4 samples.

Results

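The 505 introns described here collected reads in the cytoplasm of SUM159 cells after H3B-8800 and almost none in vehicle-treated cells. They were chosen from 142206 introns of 15902 genes, listed by 1 transcript per gene, and make up 0.355% of them. An intron was taken when each of the 2 H3B-8800 libraries held at least 30 reads inside it and the 2 DMSO libraries together held at most 10. The reads inside the introns chose the members, so their difference between the groups is a description and carries no test. Vehicle-treated cells were not empty at these introns: 32 of the 505 had no read inside in either DMSO library, and 88 sat at the limit of 10.

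SUM159 is a human cell line from a triple-negative breast cancer. The treated cells received H3B-8800, which inhibits the spliceosome, for 12 hours, and the controls received its solvent DMSO for as long. Each group had 2 libraries, which the series describes as biological duplicates, and no dose is stated in the labels. RNA was polyadenylated and came from the cytoplasmic fraction, and how pure that fraction was could not be read from these files. The totals recovered for the H3B-8800 libraries were 58000000 and 62000000 reads, against 64000000 in each DMSO library. Most markers of the line went with the label. In spliced reads summed per gene and scaled to equal library size (CPM), VIM, a mesenchymal filament protein, stood at 5075 and 4875 CPM with H3B-8800 and at 6132 and 6053 CPM with DMSO, and ESR1 and PGR, the hormone receptors that triple-negative cells lack, were at 0 in all 4 libraries. Of the other mesenchymal markers, CD44, AXL, CAV1 and MSN were at 9.41 CPM or more in every library. No value is given for FOSL1, also planned as a marker of the line, or for PTPRC, planned as a marker of other cells. EPCAM and CDH1, epithelial markers, reached at most 1.06 CPM, and GATA3 at most 3.91. PECAM1, an endothelial marker, reached at most 4.91, and ALB, a liver marker, was at 0. ERBB2, expected low or absent, was between 30.9 and 39.6, above CD44 in every library.

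Introns are removed from pre-mRNA by the spliceosome, which reads a GT at the 5′ end, an AG at the 3′ end, and a branch point shortly before the AG. The branch point is held by the U2 particle, and SF3b, the complex that H3B-8800 binds, is a part of that particle. An RNA that keeps an intron is usually held in the nucleus, and if it reaches the ribosome, a stop codon inside the intron ends the protein early and can bring the RNA to nonsense-mediated decay when an exon junction lies behind it. For each intron the files allowed 2 measures. Intronic reads lie inside the intron. Spliced reads span it, and their meaning is inferred from the values rather than stated.

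The sequence inside an intron could be read only where an annotated GENCODE 29 transcript on GRCh38 covers it whole, which was so for 48 of the 505 introns. All 48 began with GT and ended with AG. In 46 the reading frame of the preceding exon was known, and in 40 of these the frame met a stop codon inside the intron. The first base of that stop lay at a median of base 43 of the intron and at base 280 at the latest. In 9 introns it was the codon formed at base 2. The other 6 had no stop in frame, the longest of them 168 bases, and 3 of the 6 had a length that is a multiple of 3. The introns below show the range: 4 with a stop and 1 without. They are given 5′ to 3′, with capitals on the GT, the AG and the first stop codon in frame, and all of them are part of a transcript annotated as a retained intron.
TGFBI intron 5: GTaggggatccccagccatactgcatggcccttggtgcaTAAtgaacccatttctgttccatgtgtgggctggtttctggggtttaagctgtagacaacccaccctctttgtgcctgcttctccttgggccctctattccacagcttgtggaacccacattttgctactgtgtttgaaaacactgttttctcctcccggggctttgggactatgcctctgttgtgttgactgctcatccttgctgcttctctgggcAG
SRSF5 intron 3: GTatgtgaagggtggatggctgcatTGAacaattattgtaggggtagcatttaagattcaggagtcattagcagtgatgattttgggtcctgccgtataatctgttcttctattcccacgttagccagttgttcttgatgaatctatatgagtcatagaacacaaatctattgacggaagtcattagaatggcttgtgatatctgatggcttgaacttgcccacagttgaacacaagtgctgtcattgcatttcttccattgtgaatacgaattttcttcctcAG
TRA2A intron 5: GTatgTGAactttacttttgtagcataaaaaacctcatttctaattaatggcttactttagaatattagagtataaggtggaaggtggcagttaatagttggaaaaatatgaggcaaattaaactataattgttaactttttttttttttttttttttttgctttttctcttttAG
NAPA intron 6: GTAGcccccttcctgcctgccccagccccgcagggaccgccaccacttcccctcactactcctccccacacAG
TECR intron 8: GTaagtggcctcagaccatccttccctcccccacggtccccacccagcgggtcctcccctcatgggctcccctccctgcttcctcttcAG

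TGFBI intron 5 occupies chr5:136047016-136047273 on the plus strand, and its 258 bases hold the stop at base 40. The stop of SRSF5 intron 3, at chr14:69768897-69769181 on the plus strand, is at base 26, and that of TRA2A intron 5, at chr7:23505570-23505745 on the minus strand, is at base 6. NAPA intron 6, at chr19:47493046-47493118 on the minus strand, is among the shortest of the 505 at 73 bases and forms its stop at base 2. TECR intron 8, at chr19:14564859-14564948 on the plus strand, is 90 bases long and has no stop in frame. The stretch before the AG also varied. In TRA2A intron 5 and TECR intron 8, 95% of the 20 bases before the AG were pyrimidines, against 65% in SRSF5 intron 3. The last 60 bases of 4 further introns, with the AG in capitals, show how far this goes.
GRPEL1 intron 3: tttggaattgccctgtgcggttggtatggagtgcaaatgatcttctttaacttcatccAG
PRPF39 intron 13: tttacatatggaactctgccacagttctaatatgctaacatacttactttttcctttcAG
CSTB intron 2: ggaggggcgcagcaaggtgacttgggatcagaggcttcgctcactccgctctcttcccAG
QRICH1 intron 7: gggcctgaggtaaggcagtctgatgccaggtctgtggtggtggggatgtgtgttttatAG

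Those stretches lie at chr4:7061209-7061268 on the minus strand (GRPEL1), chr14:45114797-45114856 on the plus strand (PRPF39), chr21:43774331-43774390 on the minus strand (CSTB) and chr3:49032274-49032333 on the minus strand (QRICH1). The share of pyrimidines in the 20 bases before the AG was 85% in PRPF39 intron 13 and CSTB intron 2, 75% in GRPEL1 intron 3 and 45% in QRICH1 intron 7. With sequence for 9.5% of the introns, no GC content or motif was compared between the 505 and the rest. The exon ends beside the introns were known for 504 of them. They were set beside all introns and beside a comparison set of the 4508 other introns that had at least 30 intronic reads in each H3B-8800 library but more than 10 with DMSO. The last base of the preceding exon was G in 79.8% of the 504, 79.9% of the comparison set and 80.6% of all introns, and the next exon began with G in 54.2%, 49.3% and 49.4%. The 100 exon bases around an intron had a median GC content of 50%, 52% and 50%.

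Most of the 505 had modest counts and a few had many. The sum over the H3B-8800 libraries ran from 60 to 1161 reads with a median of 97, and 274 introns had under 100, 40 had at least 200 and 7 had at least 500. Together they held 29110 and 30796 intronic reads in the H3B-8800 libraries, against 1413 and 1561 in the DMSO libraries. That was 2.77% ± 0.0543 of all intronic reads after H3B-8800 and 0.236% ± 0.0169 of them after DMSO (SD, n = 2 each). After scaling to library totals, the H3B-8800 libraries differed by more than 1.5-fold at 60 introns and by more than 2-fold at 6, with 2.46-fold as the highest ratio. The same thresholds met 834 introns without H3B-8800 replicate 1 and 697 without replicate 2. Leaving out the minimum of a library can only add introns.

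HSP90AA1 intron 9 had the most reads of all. The gene encodes the inducible cytosolic HSP90 chaperone, and the intron, 289 bp at chr14:102081822-102082110 on the minus strand, is the last of 9 and holds no annotated exon. It had 559 and 602 intronic reads after H3B-8800, against 4 and 4 after DMSO. CDCA2 intron 11, in the gene of a protein phosphatase 1 partner on chromosomes, had 346 and 409 after H3B-8800, against 2 and 1 after DMSO. YY1 intron 4, the last intron of a zinc finger transcription factor gene, had 300 and 293 after H3B-8800, against 4 and 4 after DMSO. In these 3 introns the replicates lay close together, while the rule itself keeps the groups apart.

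SMARCA5 intron 22, in the gene of the ISWI chromatin remodelling ATPase, had 286 and 292 intronic reads after H3B-8800, against 5 and 5 after DMSO. OSBPL1A intron 12, in a gene of the oxysterol-binding protein family, had 264 and 313 after H3B-8800, against 0 and 2 after DMSO. TGFBI intron 5, whose sequence is given above and whose gene encodes a matrix protein induced by TGF-beta, had 261 and 302 after H3B-8800, against 2 and 0 after DMSO. DOHH, the enzyme that completes the hypusine residue of the translation factor eIF5A, had 258 and 275 intronic reads at intron 3 after H3B-8800, against 8 and 2 after DMSO. All 4 introns lie at 258 reads or more in each H3B-8800 library and at 8 or fewer in each DMSO library.

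The remaining 3 of the top 10 were in genes of RNA handling, the nuclear pore and the cytoskeleton. HNRNPA2B1 intron 8, in the gene of an abundant RNA-binding protein, had 246 and 213 intronic reads after H3B-8800, against 5 and 5 after DMSO. NUP37 intron 8, in a gene of the pore's Nup107-160 complex, had 216 and 221 after H3B-8800, against 4 and 6 after DMSO. ACTB intron 5, the last intron of the beta-actin gene, had 168 and 211 after H3B-8800, against 6 and 4 after DMSO. Of the 10, 6 are the last intron of their transcript. The introns of YY1, SMARCA5 and TGFBI overlap an annotated exon of their own strand and that of NUP37 an exon of the opposite strand, and the other 6 overlap none.

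**Figure D1:**
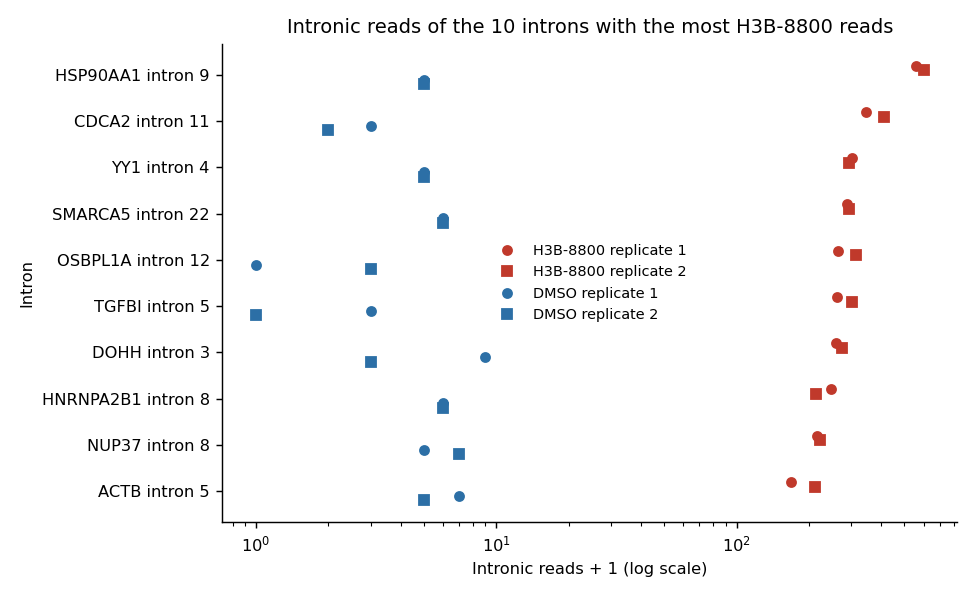
Intronic reads plus 1 on a log axis for the 10 introns with the most reads in H3B-8800 libraries, each point a library (red H3B-8800, blue DMSO; circle replicate 1, square replicate 2). H3B-8800 points run from 168 to 602 reads and DMSO points from 0 to 8, a separation that the rule builds in.

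Among the introns with no read in either DMSO library, RBBP7 intron 10 had the most, 135 and 154 with H3B-8800, and the gene encodes a histone-binding protein of several chromatin complexes. CALR intron 8 followed with 129 and 105. It is the 83 bp last intron of the gene of calreticulin, a chaperone of the endoplasmic reticulum, at chr19:12943630-12943712 on the plus strand. E2F6 intron 4, in the gene of a repressive E2F factor, had 124 and 106.

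The thresholds cut through a continuous range. PHAF1 intron 10, CHN1 intron 4 and GALNT7 intron 6 were just inside with 30 reads in each H3B-8800 library, and GNA11 intron 1, CFL2 intron 2 and PCNX3 intron 8 were just outside, with 29 in replicate 1 and 77, 52 and 50 in replicate 2. At the DMSO limit, SMARCA5 intron 22, DOHH intron 3 and HNRNPA2B1 intron 8 were inside with a sum of 10. CSTF1 intron 4, GNB5 intron 6 and NSD2 intron 5 were outside with 11, although CSTF1 intron 4 had 325 and 320 reads after H3B-8800, against 4 and 7 after DMSO.

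A read count inside an intron depends on how much of the RNA is made, so the intronic share was computed, which is the intronic reads per 100 intronic and spliced reads. Intronic reads add up over the whole intron and the share is not scaled to length. It is therefore not the fraction of RNA that keeps the intron. Pooled over the 505 introns it was 12.8% ± 0.186 after H3B-8800 and 0.659% ± 0.0489 after DMSO (SD, n = 2 each). RPS4X intron 6, in a ribosomal protein gene, alone had 42547 and 45488 spliced reads after H3B-8800, against 43354 and 41977 after DMSO. Without that intron the pooled share was 15.9% and 15.5% after H3B-8800, against 0.772% and 0.852% after DMSO. Intron by intron, the median share was 39.4% after H3B-8800 and 2.57% after DMSO. In 182 introns more than 50% of the reads were intronic in both H3B-8800 libraries, and in 60 introns fewer than 10% were. Over the 5299 other introns of the same genes the pooled share was 7.35% ± 0.0893 after H3B-8800 and 2.59% ± 0.0087 after DMSO, and over all introns it was 8.22% ± 0.0362 after H3B-8800 and 4.24% ± 0.00506 after DMSO.

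At the upper end, few reads spanned the intron. The 5 highest mean shares among introns with at least 100 intronic and spliced reads together in each H3B-8800 library are given here, and introns with fewer reads reached up to 100%. TMEM120B intron 3 had 182 and 165 intronic reads after H3B-8800, against 0 and 3 after DMSO, and 6 and 3 spliced reads after H3B-8800, against 40 and 46 after DMSO. Its intronic share was 96.8% and 98.2% after H3B-8800, against 0% and 6.12% after DMSO. SBF1 intron 1, in the gene of a myotubularin-related protein, had shares of 98.4% and 95.1% after H3B-8800, against 0% and 20% after DMSO, on few spliced reads (2 and 5 after H3B-8800, against 1 and 8 after DMSO). FBXL17 intron 8, in an F-box protein gene, had 97.4% and 95.4% after H3B-8800, against 25% and 60% after DMSO. DOHH intron 3 had 95.6% and 94.5% after H3B-8800, against 24.2% and 11.8% after DMSO. TIA1 intron 6, in the gene of an RNA-binding protein of stress granules, had 94.6% and 93.1% after H3B-8800, against 3.33% and 25% after DMSO. The DMSO shares of these introns rest on few reads, and 27 of the 505 introns were over 50% intronic in some DMSO library.

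At the lower end were very abundant RNAs in which intronic reads were a small part of the whole. RPS4X intron 6 had 42 and 62 intronic reads after H3B-8800, against 1 and 1 after DMSO, which is a share of 0.0986% and 0.136% after H3B-8800, against 0.00231% and 0.00238% after DMSO. CALR intron 8 had 1.35% and 1.04% after H3B-8800, against 0% and 0% after DMSO. ACTB intron 5 had 1.38% and 1.51% after H3B-8800, against 0.0444% and 0.0291% after DMSO. Genes such as ACTB, RPS4X and HSP90AA1 have processed copies elsewhere in the genome, and nothing states how reads were shared with such copies, so their spliced reads are uncertain.

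Most of the 505 introns were of middle length. Their median was 1856 bp (95% interval from order statistics 1702 to 2029, range 73 to 31226), against 1459 bp for all introns. The interval takes introns as independent draws, which they are not, and leaves out the spread between libraries. In the comparison set, which also had at least 30 reads in each H3B-8800 library, the median was 3516 bp. Introns of 1001 to 3000 bp were 38.6% of the 505, 27.8% of the comparison set and 29.6% of all introns, and introns over 10000 bp were 4.55%, 21.2% and 9.73%. Introns of up to 150 bp numbered 37, which is 7.33% of the 505, 2.40% of the comparison set and 9.92% of all introns. Length sets how many reads an intron can collect and so bears on both thresholds, and no test was made.

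Density ran against length. The median number of intronic reads per kb and H3B-8800 library was 500 in introns of up to 150 bp, 104 in those of 151 to 1000 bp, 27.9 up to 3000 bp, 10.1 up to 10000 bp and 3.0 above, which the minimum of 30 reads fixes in part. The median intronic share moved the other way, with 16.8%, 35.3%, 43.7%, 49.8% and 45.7%. Because the share is not scaled to length, it can be higher in longer introns that are kept no more often. The short members sat in abundant RNAs: their median was 242 spliced reads per H3B-8800 library, against 52 in the longest class. The minimum of 30 reads fixes this in part as well, since a short intron collects fewer reads from the same RNA. NAPA intron 6 and RPL10A intron 2 were the shortest at 73 bp, followed by MRPL52 intron 1 at 76 bp and C19orf53 intron 1 and UCKL1 intron 10 at 77 bp. NAPA encodes alpha-SNAP, a factor that takes apart SNARE complexes, and its intron had 47 and 82 intronic reads after H3B-8800, against 2 and 8 after DMSO. UCKL1 intron 10 had 37 and 35 after H3B-8800, against 5 and 5 after DMSO. The longest were PRKCA intron 13 (31226 bp), LONP2 intron 9 (30910 bp) and PEAK1 intron 6 (24752 bp). PRKCA, which encodes protein kinase C alpha, had 34 and 38 reads in that intron after H3B-8800, against 0 and 4 after DMSO, or 1.15 per kb in H3B-8800 libraries. Per kb, the densest introns without an annotated exon were all last introns: HSP90AA1 intron 9 with 2009 reads per kb and H3B-8800 library, ACTB intron 5 with 1692, CALR intron 8 with 1410, HNRNPUL2 intron 13 with 1242 and GPX4 intron 4 with 1194.

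Last introns were common. Of the 505, 161 were the last intron of their transcript, which is 31.9% (95% Clopper-Pearson interval 27.8% to 36.1%), against 22.2% in the comparison set and 10.1% of all introns. That interval treats introns as independent draws and leaves out the spread between libraries. Internal introns were 302 of the 505, or 59.8%, against 58.3% in the comparison set and 78.8% of all. First introns were 35 of the 505, or 6.93%, against 16.8% in the comparison set and 10.1% of all. In transcripts with 5 or more introns, 26.8% of the members were the last intron, 13.9% the next to last, 9.65% the third from the end and 6.59% the fourth, while each place holds 7.70% of all introns. The share of last introns was 56.8% among members of up to 150 bp, 46.0% up to 1000 bp, 31.3% up to 3000 bp, 16.8% up to 10000 bp and 17.4% above. In the comparison set the same classes held 31.5%, 28.2%, 27.9%, 21.0% and 11.6% last introns. Without H3B-8800 replicate 1, 26.9% of the introns that met the thresholds were last introns, and without replicate 2, 29.4%.

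The libraries themselves held more reads at 3′ ends in both groups. In transcripts with 5 or more introns, spliced reads at last introns were 1.52 and 1.49 times those at first introns with H3B-8800, and 1.56 and 1.52 times with DMSO. Last introns held 20.5% and 20.1% of the intronic reads of those transcripts with H3B-8800, against 16.8% and 17.0% with DMSO. The part of this slope in the place of the 505 introns was not tested.

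**Figure D2:**
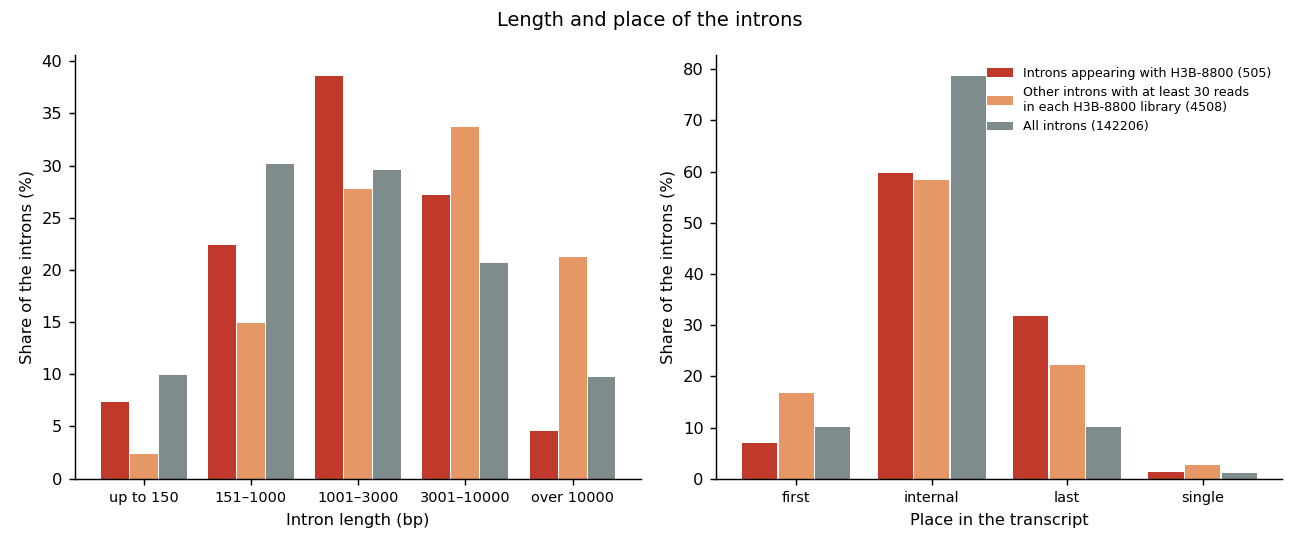
Share of introns (%) by length class (left) and by place in the transcript (right) for the 505 introns appearing with H3B-8800 (red), the 4508 other introns with at least 30 reads in each H3B-8800 library (orange) and all 142206 introns (grey). The class of 1001 to 3000 bp holds 38.6% of the members, and last introns are 31.9% and internal introns 59.8% of them.

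Of the 505 introns 481 lie between coding exons, which is 95.2%, near the 95.7% of all introns and the 92.2% of the comparison set, with 16 in the 5′ UTR and 8 in the 3′ UTR. A length that is a multiple of 3, which would keep the frame, was found in 31.3% of them and in 33.4% of all introns. An annotated exon of the same strand overlapped 215 of them in part or whole (42.6%), against 72.1% of the comparison set and 28.7% of all introns. Reads there cannot be told apart from reads of that exon. Such an exon covered 48 of the 505 whole. No annotated exon of either strand overlapped 274 of them (54.3%, against 25.1% of the comparison set and 67.9% of all introns). A transcript annotated as a retained intron covered 33 of the 505, which is 6.53%, against 7.48% of the comparison set and 4.37% of all introns. Chromosome 19 carried 56 of the introns, 11.1%, against 7.05% of the comparison set and 5.98% of all.

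The 505 introns belong to 478 genes, of which 454 had 1 such intron, 22 had 2, TGFBI had 3 and RBM19 had 4. How low the other introns of a host transcript were varied from gene to gene. In OSBPL1A, intron 12 had 264 and 313 intronic reads with H3B-8800, whereas 10 of the other introns had at most 2 in either H3B-8800 library and intron 3 had 27 and 20 after H3B-8800, against 20 and 20 after DMSO. In CALR the other 7 introns had at most 14 reads in any library. In HSP90AA1 the next highest was intron 8, with 13 and 21 reads after H3B-8800, against 12 and 8 after DMSO. SKIL, which encodes the SMAD corepressor SnoN, had 165 and 200 reads in intron 4 after H3B-8800, against 1 and 0 after DMSO, and at most 6 in each other intron. CDCA2 had intron 2 (64 and 74 after H3B-8800, against 8 and 2 after DMSO) and intron 11, with introns 3 to 6 at 0 in every library. Intron 14 of CDCA2 had 65 and 60 after H3B-8800, against 12 and 12 after DMSO, and intron 13 had 50 and 53 after H3B-8800, against 30 and 16 after DMSO, both above the DMSO limit of the rule.

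Runs of neighbours were found as well. RBM19, whose protein takes part in ribosome assembly, had 4 members in a row. Intron 17 had 88 and 79 intronic reads after H3B-8800, against 0 and 0 after DMSO. Intron 18 had 61 and 59 after H3B-8800, against 0 and 0 after DMSO, intron 19 had 53 and 54 after H3B-8800, against 2 and 0 after DMSO, and intron 20 had 60 and 59 after H3B-8800, against 0 and 0 after DMSO. In the same RNA, introns 2 to 5 and 9 to 13 were at 0 in every library. NUP37 introns 7 and 8 were both members, with 82 and 77 reads at intron 7 after H3B-8800, against 2 and 4 after DMSO. HNRNPA2B1 intron 7 had 83 and 109 after H3B-8800, against 5 and 4 after DMSO, and stood beside intron 8. TGFBI introns 5 and 6 were neighbours. Intron 6 had 75 and 64 after H3B-8800, against 2 and 4 after DMSO, and intron 10 had 52 and 61 after H3B-8800, against 3 and 2 after DMSO. The intron between them with the most reads, TGFBI intron 7, had 341 and 410 after H3B-8800, against 67 and 64 after DMSO, and so lay over the DMSO limit.

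**Figure D3:**
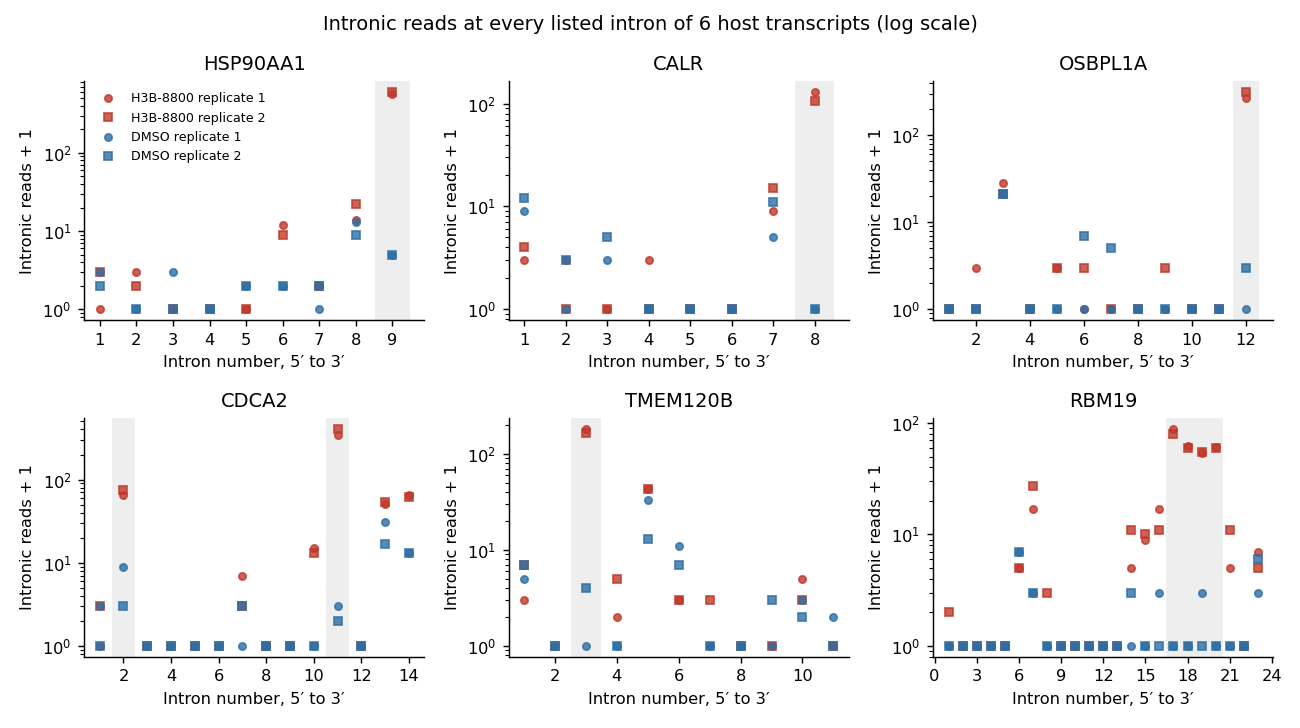
Intronic reads plus 1 (log axes) at each listed intron of HSP90AA1, CALR, OSBPL1A, CDCA2, TMEM120B and RBM19, numbered 5′ to 3′ on the x axis; points are libraries (red H3B-8800, blue DMSO) and grey bands mark the introns that meet the rule. In RBM19 the H3B-8800 points of introns 17 to 20 lie between 53 and 88 reads while introns 2 to 5 are at 0 in all libraries.

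Over the 400 host transcripts with 5 or more introns, the members held a median of 38.8% of the transcript's intronic reads with H3B-8800 and 7.17% with DMSO, a difference that the rule builds in. In 19 transcripts they held over 90% with H3B-8800, and in 37 no other intron had 10 or more reads in any H3B-8800 library. Of the 5299 other introns of the host genes, 2146 (40.5%) had no intronic read in either H3B-8800 library.

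The other introns of the host genes are those that did not meet the rule, and they come from the same libraries and RNAs. Of them, 739 had enough intronic reads to be tested with edgeR's quasi-likelihood test on library totals, and 409 were higher with H3B-8800 and 28 lower, at a Benjamini-Hochberg adjusted p of 0.05. Of all 12013 introns tested, 48.2% were higher and 5.74% lower. These 12013 include the 505 members, whose rise the rule builds in, so the values over all introns are not free of the rule. The median log2 change was 1.38 for these introns and 1.13 for all tested. With TMM scaling, which centres the intronic reads near 0 (median of all 0.09), 193 were higher, beside 21.4% of all introns tested, and 106 lower, beside 19.3%. The share of higher among the calls was 93.6% on library totals, where it was 89.4% over all introns, and 64.5% with TMM, where it was 52.5% over all. Without H3B-8800 replicate 1 or replicate 2 edgeR called none of the 12013 introns, with 302 and 303 of the host gene introns and 4367 and 4280 of all at an unadjusted p under 0.05. Directly before a member stood 463 introns, of which 16 were members. Of the 102 non-members tested there, 68 were higher and 1 lower, and over all non-members in that place the median was 2.5 intronic reads per H3B-8800 library and 1 per DMSO library. Directly after a member stood 337 introns, again with 16 members, and of the 74 others tested 58 were higher, with medians of 3 reads per H3B-8800 library and 1 per DMSO library.

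The lists of the splicing machinery itself held none of the introns. None of the 223 listed introns of SF3b, SF3a and U2 recruitment genes was a member, and none of 444 in other core spliceosome genes, where the share over all introns was 0.355%. Of these introns, 11 and 16 had at least 60 intronic reads summed over the H3B-8800 libraries, which every member must have. Of all introns with at least 30 in each H3B-8800 library, 10.1% were members. With so few introns at that level, nothing is read from the absence of members. The regulators of splicing had some members. In the list of SR proteins and their kinases 20 introns had at least 60 such reads, and in the hnRNP list 28. Of 145 introns of SR protein genes and their kinases, 3 were members: SRSF5 intron 3, TRA2A intron 5 and SRSF6 intron 5. SRSF5 intron 3 had 76 and 91 intronic reads after H3B-8800, against 1 and 3 after DMSO, TRA2A intron 5 had 47 and 34 after H3B-8800, against 2 and 0 after DMSO, and SRSF6 intron 5 had 31 and 32 after H3B-8800, against 4 and 6 after DMSO. Of 191 introns of hnRNP genes, 5 were members, in HNRNPA2B1 (introns 7 and 8), HNRNPUL2, HNRNPL and HNRNPM. HNRNPUL2 intron 13, a 120 bp last intron, had 129 and 169 reads after H3B-8800, against 4 and 4 after DMSO.

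Genes of protein synthesis and turnover held 5 members in each of 3 lists: 5 of 291 ribosomal protein introns, 5 of 323 translation factor introns and 5 of 238 proteasome introns. At least 60 intronic reads over the H3B-8800 libraries were found in 134, 40 and 26 introns of these lists. The member share was 0.355% over all introns and 10.1% over those with at least 30 reads in each H3B-8800 library. RPL10A intron 2, in the gene of a protein of the large ribosomal subunit, had 53 and 76 intronic reads after H3B-8800, against 5 and 5 after DMSO. EEF1G intron 9, in the gene of an elongation factor subunit, had 134 and 132 after H3B-8800, against 0 and 4 after DMSO. PSMD4 intron 6, in the gene of a ubiquitin receptor of the proteasome, had 72 and 89 after H3B-8800, against 1 and 0 after DMSO. PSMD3 intron 11, in the gene of a subunit of the proteasome lid, had 49 and 67 after H3B-8800, against 0 and 0 after DMSO. Chaperone genes held 4 of 240, among them BAG3 intron 2 with 42 and 48 after H3B-8800, against 2 and 0 after DMSO.

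Of 464 introns of mitosis and cell cycle genes 5 were members, in TOP2A, AURKB, BUB1, CCNA2 and SMC4. TOP2A intron 33, in the gene of topoisomerase II alpha, had 73 and 61 intronic reads after H3B-8800, against 2 and 8 after DMSO, and AURKB intron 4, in the gene of the Aurora B kinase, had 47 and 53 after H3B-8800, against 2 and 0 after DMSO. DNA replication genes held 1 of 498, MCM6 intron 16, with 50 and 49 after H3B-8800, against 2 and 2 after DMSO. Nonsense-mediated decay and exon junction genes held 2 of 227, SMG8 intron 3 and UPF1 intron 5, and mRNA export genes 2 of 172, THOC3 intron 3 and ALYREF intron 5. The libraries of THOC3 intron 3 differed, with 128 and 56 reads after H3B-8800, against 0 and 7 after DMSO. The lists of the integrated stress response (ASNS intron 1), tubulins and microtubule proteins (DYNC1H1 intron 48) and glycolysis (TPI1 intron 4) held 1 each of 101, 289 and 137 introns. The lists of double-stranded RNA sensing (186 introns) and apoptosis (78) held none. In these lists 3 and 8 introns had at least 60 intronic reads over the H3B-8800 libraries, which every member must have. Over all introns 0.355% were members, so lists of this size can easily hold none, and nothing is read from these counts.

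Spliced reads stand for RNA from which the intron had been removed. They are other reads than those that chose the members, but from the same libraries and the same contrast, so the counts describe the set and nothing is read from them. The 505 introns had 196155 and 212466 of them in the H3B-8800 libraries, against 224847 and 223471 in the DMSO libraries. With a mean of at least 10 spliced reads, 458 of the 505 could be tested with edgeR's quasi-likelihood test under TMM scaling. At an adjusted p of 0.05, 140 were higher with H3B-8800, beside 21.5% of all 66136 introns tested, and 84 were lower, beside 21.7%. The median log2 change was 0.16 for the 458 and 0.01 for all. Scaling to library totals moves the median of all introns to -0.23 and that of the members to -0.08, with 92 higher, beside 12.9% of all, and 151 lower, beside 31.3%. Among the calls 62.5% were higher under TMM, against 49.7% over all introns, and 37.9% on library totals, against 29.1% over all. Of the members, 92 introns were higher and 84 lower under both scalings. Relative to all introns tested, the median of the members was 0.15 higher under either scaling. Without H3B-8800 replicate 1 or replicate 2 edgeR called none of the 66136 introns, with 192 and 191 of the members and 24092 and 24292 of all introns at an unadjusted p under 0.05. DESeq2 on all 4 libraries called 105 members higher, beside 12.2% of all introns, and 50 lower, beside 12.1%.

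**Figure D4:**
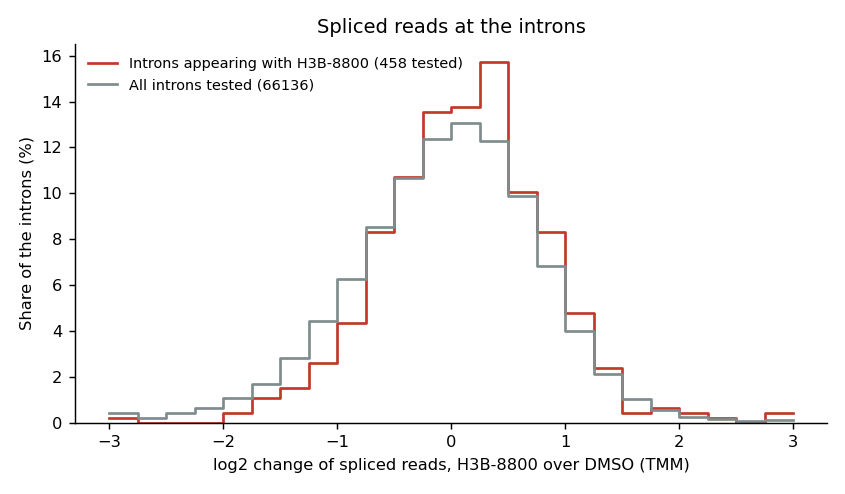
Distribution of the log2 change of spliced reads (H3B-8800 over DMSO, TMM scaling, x axis) as a share of introns in % (y axis) for the 458 tested introns appearing with H3B-8800 (red) and all 66136 introns tested (grey). The medians are 0.16 and 0.01, and the middle 50% of the members lies between -0.34 and 0.55.

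The largest rise was at ZBTB38 intron 4, in the gene of a methyl-CpG-binding zinc finger protein. It had 38 and 41 spliced reads after H3B-8800, against 5 and 8 after DMSO, a log2 change of 2.90 ± 0.41 (SE; edgeR adjusted p = 8.07e-06), beside 45 and 48 intronic reads after H3B-8800, against 0 and 6 after DMSO. SLC12A8 intron 8, in a gene of the cation-chloride cotransporter family, followed with 28 and 40 after H3B-8800, against 4 and 8 after DMSO. ZNF224 intron 5, in a zinc finger repressor gene, had 18 and 22 spliced reads after H3B-8800, against 7 and 3 after DMSO, and NR1D2 intron 3, in the gene of the clock repressor REV-ERB beta, had 30 and 18 after H3B-8800, against 8 and 6 after DMSO. FLYWCH1 intron 1 had 31 and 47 spliced reads after H3B-8800, against 15 and 9 after DMSO. The rule fixes the higher intronic reads of these 5 introns, and they were picked for their rise of spliced reads. All 5 rises passed under both scalings.

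The largest fall was at TMEM120B intron 3, by 2.90 on the log2 scale (SE 0.45, edgeR adjusted p = 2.73e-05), with the counts given above. In these bulk samples, fewer cells of a kind and less RNA per cell cannot be told apart. At the gene's other introns together, spliced reads fell by 3.10 (SE 0.15, edgeR adjusted p = 1.44e-09). DNMT1 intron 4, in the gene of the maintenance DNA methyltransferase, had 23 and 17 spliced reads after H3B-8800, against 101 and 97 after DMSO, while its intronic reads were 30 and 32 after H3B-8800, against 2 and 0 after DMSO. RRP1 intron 1, in a gene of ribosome biogenesis, had 12 and 17 spliced reads after H3B-8800, against 67 and 60 after DMSO. SAAL1 intron 7 had 19 and 20 after H3B-8800, against 76 and 82 after DMSO, and WDFY2 intron 10 had 11 and 6 after H3B-8800, against 41 and 28 after DMSO. All 5 falls passed under both scalings.

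Among the introns with the most intronic reads, spliced reads went either way or did not pass. YY1 intron 4 had 274 and 329 of them after H3B-8800, against 238 and 234 after DMSO, a log2 change of 0.68 ± 0.11 (SE; edgeR adjusted p = 5.88e-05). They rose also at SMARCA5 intron 22 (1073 and 977 after H3B-8800, against 906 and 892 after DMSO), OSBPL1A intron 12 (213 and 218 after H3B-8800, against 153 and 181 after DMSO) and TGFBI intron 5 (1179 and 1251 after H3B-8800, against 1044 and 1090 after DMSO), under both scalings. They fell under both at NUP37 intron 8 (48 and 44 after H3B-8800, against 118 and 97 after DMSO) and HNRNPA2B1 intron 8 (1815 and 1932 after H3B-8800, against 2597 and 2878 after DMSO). HSP90AA1 intron 9 had 3130 and 3297 spliced reads after H3B-8800, against 4560 and 4155 after DMSO, which did not pass under TMM (log2 change -0.11 ± 0.06, edgeR adjusted p = 0.124) and was lower on library totals (-0.35). CDCA2 intron 11 and ACTB intron 5 were higher under TMM and did not pass on library totals. DOHH intron 3, with 12 and 16 spliced reads after H3B-8800, against 25 and 15 after DMSO, passed under neither.

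In the listed gene groups, spliced reads also went either way. SRSF5 intron 3 had 827 and 874 spliced reads after H3B-8800, against 513 and 469 after DMSO, a log2 change of 1.12 ± 0.09 (SE; edgeR adjusted p = 2.67e-09). TRA2A intron 5 had 42 and 58 after H3B-8800, against 87 and 111 after DMSO, and was lower, and SRSF6 intron 5 did not pass under TMM (-0.13) and was lower on library totals (-0.36). TOP2A intron 33 had 475 and 557 after H3B-8800, against 1287 and 1161 after DMSO, and AURKB intron 4 had 100 and 113 after H3B-8800, against 242 and 244 after DMSO, both lower under either scaling. Of the 5 ribosomal protein introns 3 were higher and 2 did not pass under TMM. The 5 translation factor introns and the 5 proteasome introns gave the same counts. Over all introns tested 21.5% were higher under TMM, and with 5 introns in a list nothing is read from these counts. EEF1G intron 9, EIF2S2 intron 6, BAG3 intron 2, CCT5 intron 7, UPF1 intron 5 and HNRNPUL2 intron 13 were among those higher under TMM that did not pass on library totals.

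The host genes were also followed by the spliced reads at their other introns. Of the 478 host genes 462 could be tested, and edgeR called 199 higher and 139 lower, beside 32.7% of 9478 genes tested in each direction. The median log2 change was 0.11 for the host genes and 0.01 for all genes. On library totals 152 were higher, beside 23.5% of all genes, and 185 lower, beside 41.4%, with medians of -0.07 for the host genes and -0.16 for all. Of the calls, 58.9% were higher under TMM, against 49.98% over all genes, and 45.1% on library totals, against 36.2% over all. For 448 introns both their own spliced reads and those of the rest of the gene were tested. Both were higher for 122, both were lower for 77, and 97 passed in neither. No such counts are given for the other introns tested. Whether the members matched the rest of their genes more often than other introns did was not tested.

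Opposite calls were found at 2 introns. TIA1 intron 6, which overlaps an annotated exon, had 8 and 12 spliced reads after H3B-8800, against 29 and 27 after DMSO, and fell by 1.15 on the log2 scale (SE 0.42, edgeR adjusted p = 0.0302), while the other introns of TIA1 together rose by 0.72 (SE 0.10, adjusted p = 2.54e-05). GRAMD1A intron 3 was higher by 0.37 under TMM, which did not pass on library totals, while the rest of its gene fell by 0.64. A further 14 introns were higher and 5 lower where the rest of the gene did not pass. FLYWCH1 intron 1 was among them, with 2.01 at the intron and 0.03 (SE 0.19) at the other introns of the gene. Whether an intron differed from the rest of its gene was not tested.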

How the data were processed

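HISAT2 2.0.4 and builds hg38 and mm10 are listed, per the submitters' processing notes. The libraries were strand-specific per the labels' protocols, and no source used here says if strand was used in counting. Each deposited table holds a pair of read counts per intron, and an RPKM value. The authors' RPKM was used only to recover library totals. The first deposited count was taken as intronic reads and its difference from the second as spliced reads, and 18 introns without a second count were left out. Even numbers made up 70.9% to 72.3% of non-zero intronic counts per library (62.4% and 55.2% for the 505 introns with H3B-8800, 78.7% and 77.1% with DMSO), so both mates of a pair may be counted. The intervals for length and place cover sampling of introns as if independent, and not the spread between libraries.

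Spliced reads per intron (mean of at least 10) and per gene without the 505 introns (mean of at least 1 CPM) were tested with edgeR 4.0.16 under TMM scaling in R 4.3.3, and intronic reads per intron (mean of at least 10) on library totals, with p-values adjusted by Benjamini-Hochberg over the whole table. DESeq2 1.42.0, other scalings, no filter, a replicate term, introns without annotated exons and leaving out each library were alternatives. Tests were checked on simulated counts. Annotation and sequences came from GENCODE release 29 on GRCh38. Symbols were matched by RefSeq accession for 98.4% of genes.

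The members and the gene lists were chosen with earlier results of these data known. Introns are named where they had the most reads, the most reads per kb without an annotated exon, the highest intronic share at 100 or more intronic plus spliced reads in each H3B-8800 library, the shortest or longest length, a host gene with at least 3 members, up to 3 places in a gene list, the largest rises and falls of spliced reads, or a place at a threshold. RBBP7, E2F6, SKIL, GRAMD1A, TGFBI intron 7 and the introns shown by sequence alone were named after their values were seen. Numbers of replicates were not taken to pair libraries. Not every intron that the naming rule picks is reported here.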

Additional observations from a re-analysis of the deposited data

How the results depend on the processing

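A minimum of 20 reads in each H3B-8800 library gave 1106 introns, of which 26.9% were last introns, with a pooled intronic share of 11.2% with H3B-8800. A minimum of 50 gave 167, 38.9% and 14.8%. A DMSO limit of 5 gave 202 introns with a median length of 1600 bp and a share of 9.27%, and a limit of 20 gave 1081 with a share of 11.2%. The 274 introns without an annotated exon had a share of 10.4%. Leaving out 1 library at a time gave 538 to 834 introns, 26.9% to 31.6% last introns and median lengths of 1933 to 1957.5 bp.

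Spliced reads of the members were called higher at 92 and lower at 151 on library totals, beside 12.9% and 31.3% of all introns tested. Under TMM the calls were 140 and 84, beside 21.5% and 21.7%. DESeq2 called 50 lower, beside 12.1%. With only introns without an annotated exon tested, 77 were higher and 51 lower, beside 20.7% and 21.3% of all such introns. That test covered a smaller number of introns. Leaving out 1 library gave 0 to 130 higher and 0 to 68 lower, the 0 without either H3B-8800 library, where no intron at all was called. Intronic reads of the other introns of host genes gave 193 higher and 106 lower with TMM scaling, 129 and 74 with DESeq2 (13.8% and 13.01% of all tested), 142 and 5 among introns without an annotated exon (55.5% and 3.72% of all such), and 0 to 410 higher and 0 to 28 lower without 1 library. The calls of host genes stayed within 1.5 times of 199 higher and 139 lower in all alternatives run. Beyond the counts of introns tested, the cause of these shifts was not tested.

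Replicate numbers are shared between the groups, but the labels tie them to nothing else, and same-numbered libraries deviated together with a correlation of 0.0566 over 7125 genes. With replicate as a block, 149 members were higher and 93 lower in spliced reads, beside 22.4% and 22.7% of all introns tested. Of the host genes 203 were higher and 140 lower, beside 33.4% of all genes in each direction. In intronic reads, 374 of the other introns were higher and 26 lower, beside 43.8% and 4.79% of all tested. With 2 libraries a group, small differences at introns near 10 reads could not be detected.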
